A study of Rattus with 6 samples.

Results

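The mitotic spindle and kinetochore genes described here are 34 genes that dividing cells use to enter mitosis, attach and separate chromosomes and split in 2. They were chosen by symbol from a list drawn up with earlier results of these data known, so the choice was not independent of their values. All 34 symbols were found once each among the 21378 genes of the count table, and all 34 passed the filter on low counts that left 14412 genes for testing. RNA was sequenced from a commercially supplied culture of rat cardiac fibroblasts, which make the connective tissue of the heart and which the labels call a line. Of the 6 libraries, 3 were titled siCtrl and 3 siNONO, the latter from cells lipofected with an siRNA against Nono, which encodes a nuclear RNA- and DNA-binding protein. The labels describe the siCtrl cells elsewhere as having received an empty vector, so what the controls were given is not settled. The sources used here do not give age, sex, strain or passage number of the cells. A harvest time of 48 h is stated for RT-qPCR and western blotting, and none for sequencing. Because the labels do not say whether libraries of a group came from separate cultures, the p-values rest on a spread between libraries that may be technical.

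Transcription of most of these genes is periodic: their mRNAs are low in G1 and peak in late G2 and mitosis, so in an asynchronous culture they come largely from the cells that are cycling. The transcription factors FOXM1 and B-MYB (Mybl2), with the MuvB complex, activate them, and pocket proteins with MuvB repress them in resting cells. CDK1 with cyclin B starts mitosis, the kinetochore ties chromosomes to spindle microtubules, the spindle checkpoint holds anaphase back until all are attached, and the central spindle then directs the cleavage furrow. In bulk samples such as these, a larger share of dividing cells and more RNA of these genes per cell cannot be told apart.

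Total counts ranged from 27792357 to 33365588 per library, and the 34 genes had 75 to 650 reads each per library, where counting alone gives a coefficient of variation of 11.5% to 3.92%. Nono itself was lower in all 3 siNONO libraries (69.9, 76.1 and 73.6 CPM, the counts scaled to a common library size with TMM factors) than in the siCtrl libraries (237, 233 and 247 CPM), with a log2 fold change (SE) of -1.70 ± 0.05 (edgeR adjusted p = 4.57e-11). The 12 fibroblast markers had means over all libraries from 20.3 to 15300 CPM, with a median of 854 CPM against 18.9 CPM over all tested genes. Col1a1 averaged 15859 CPM and Pdgfra 623 CPM in siCtrl. Of 9 cardiomyocyte markers, 6 were in the count table and 3 passed the filter, with means of 0.333, 0.524 and 132 CPM. The highest was Tnnt2, at 152 CPM in siCtrl. Those that failed the filter were at or near 0, with 8 reads of Myh6, 3 of Actc1 and 1 of Ryr2 over all 6 libraries. Macrophage and leukocyte markers were present. The 8 tested of 10 summed to between 504 and 541 CPM in siCtrl and between 454 and 479 CPM in siNONO. Of these 8, 4 were lowered and 0 raised, against 15.9% and 16.2% of all tested genes.

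Knockdown libraries held slightly more mRNA of the mitotic genes. With a Benjamini-Hochberg adjusted p under 0.05 in edgeR's quasi-likelihood test as the threshold, 17 of the 34 were raised and 0 lowered, while 16.2% of all tested genes were raised and 15.9% lowered. Among the 3438 tested genes whose mean level lay in the same range as that of these 34 (3.59 to 16.9 CPM), 15.0% were raised. At an unadjusted p under 0.05 in the same test 20 of the 34 differed, all of them higher in siNONO. Of all 14412 tested genes, 6058 differed at that threshold, in either direction. The log2 fold change, siNONO minus siCtrl, was above 0 for all 34 genes, against 50.5% of all tested genes. The changes were small. The median log2 fold change of the 34 was 0.28 (a 1.21-fold higher level), with a range from 0.02 to 0.53, against a median of 0.00 and quartiles of -0.15 and 0.16 over all tested genes. Every siNONO library lay above every siCtrl library for 20 of the 34 genes, against 22.9% of all tested genes. The 34 genes together amounted to 234, 267 and 238 CPM in siCtrl replicates 1, 2 and 3 and to 287, 279 and 315 CPM in siNONO replicates 1, 2 and 3. The groups did not overlap in this sum, although the highest siCtrl library came close to the lowest siNONO library.

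**Figure D1:**
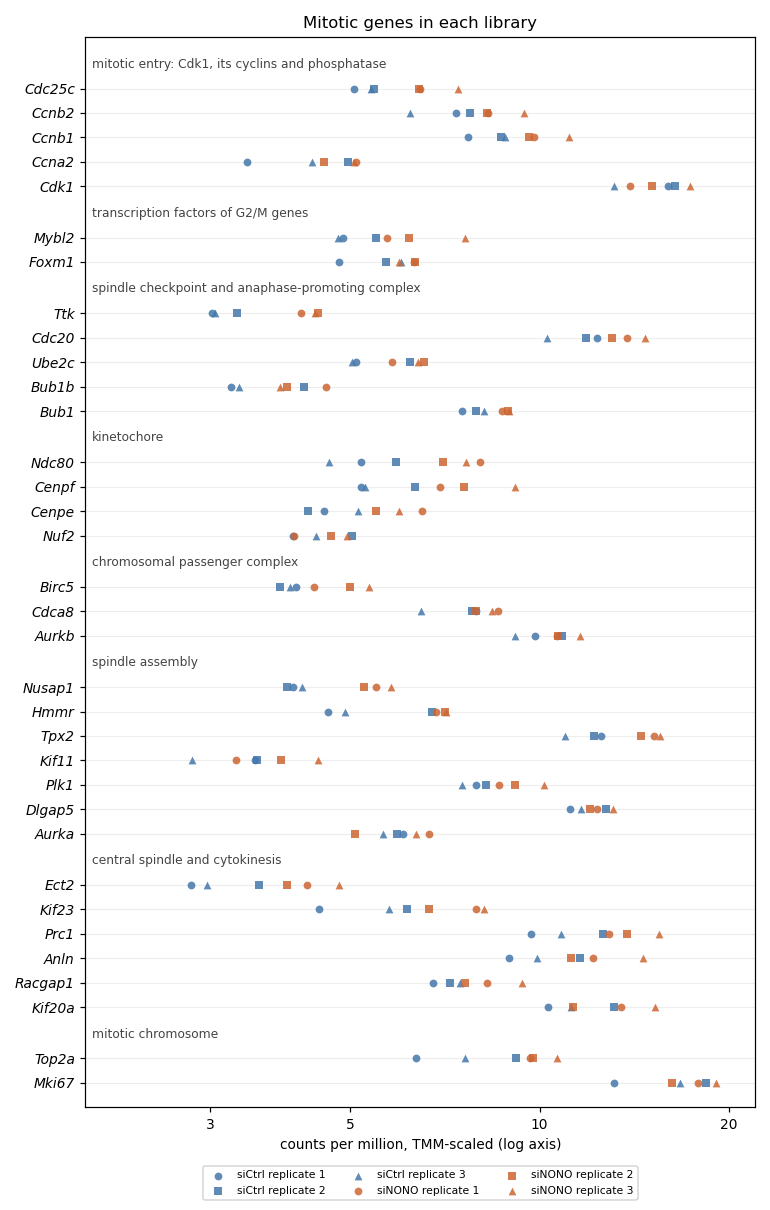
Level of each of the 34 mitotic genes in each of the 6 libraries, as TMM-scaled CPM on a log axis. Genes are ordered by role, and blue and orange symbols are siCtrl and siNONO replicates. For 20 genes, such as Ndc80, Ttk and Nusap1, the orange symbols all lie to the right of the blue ones, and for others, such as Nuf2, Cdk1 and Aurka, they mix.

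The 34 genes moved together from library to library, so they are not 34 separate pieces of evidence. In siNONO replicate 3, 24 of them had their highest level of all 6 libraries, and in siCtrl replicate 1, 19 had their lowest. Of the 130 other mitotic genes described below, 51 were highest in siNONO replicate 3 and 51 lowest in siCtrl replicate 1. The same counts over all tested genes are not given here, so a shift of whole libraries is not set apart. The number raised rested on single libraries. Without siNONO replicate 3 it was 5, without siCtrl replicate 3 it was 10, and without siCtrl replicate 1 or siNONO replicate 1 it was 11 in each case. It was 16 without siCtrl replicate 2 and 17 without siNONO replicate 2, where Kif20a and Racgap1 joined the raised genes. Over all genes, 2338 were raised with all 6 libraries and 1704 without siNONO replicate 3. In that fit the share raised among the 34 came near that over all genes. All genes raised were 1878 without siCtrl replicate 3, 2243 without siCtrl replicate 1 and 1675 without siNONO replicate 1. They were 2103 without siCtrl replicate 2 and 2061 without siNONO replicate 2. The median log2 fold change of the 34 ranged from 0.21 (without siNONO replicate 3) to 0.31 over these fits, and 0 of the 34 were lowered in any of them. Calls lost without siNONO replicate 3 were those of Anln, Ccnb1, Ccnb2, Cdc20, Cdc25c, Cenpe, Ect2, Hmmr, Kif23, Mybl2, Prc1 and Top2a (edgeR adjusted p from 0.0527 to 0.205). Of these 12, Anln, Ect2, Hmmr, Mybl2, Top2a, Ccnb2 and Cdc20 also lost their call without siCtrl replicate 3 (edgeR adjusted p from 0.0594 to 0.194). Without siCtrl replicate 1 the calls of Anln, Ccnb1, Cenpe, Hmmr, Mybl2 and Top2a ended (0.0588 to 0.123), and without siNONO replicate 1 those of Anln, Ccnb1, Ccnb2, Cdc20, Cenpe and Hmmr (0.0547 to 0.122). Cenpe also lost its call without siCtrl replicate 2 (0.0934), and Ccnb2 and Hmmr without siNONO replicate 2 (0.0544 to 0.0887). The 5 genes raised in every one of these fits were Ndc80, Cenpf, Ttk, Tpx2 and Nusap1. The same 5 were raised at an adjusted p threshold of 0.01, where 1428 of all genes were raised.

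**Figure D2:**
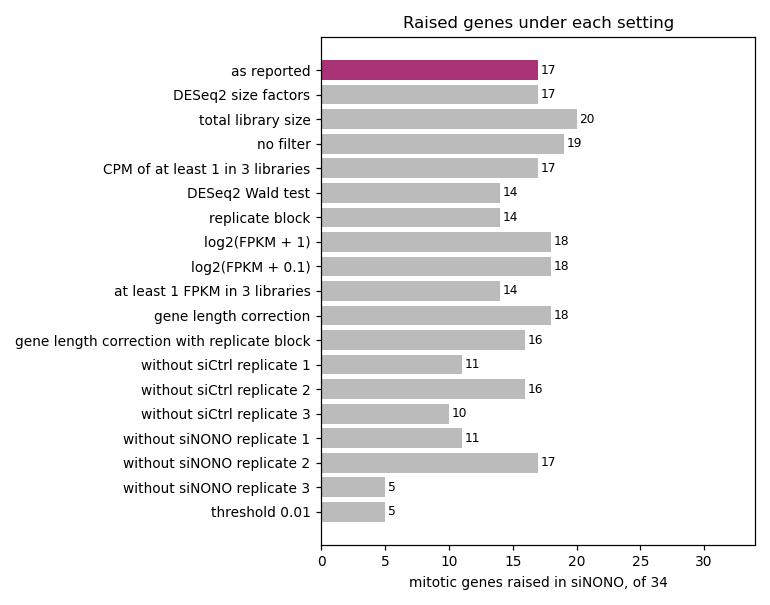
Number of the 34 mitotic genes raised in siNONO under each way of processing the data, with the number as reported in purple. It lay between 14 and 20 with other scalings, filters and tests at the same threshold, fell to 5 without siNONO replicate 3 and at a threshold of 0.01, and the fit on genes with at least 1 FPKM could test only 27 of the 34. Over all genes, 1704 were raised without siNONO replicate 3 and 1428 at a threshold of 0.01, in place of 2338.

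Among the genes of mitotic entry, the B-type cyclins and the phosphatase Cdc25c rose while Cdk1 itself hardly differed. Cdc25c, whose product removes the inhibitory phosphates from CDK1, was at 5.06, 5.45 and 5.40 CPM in siCtrl replicates 1, 2 and 3 and at 6.45, 6.44 and 7.41 CPM in siNONO replicates 1, 2 and 3. The groups did not overlap, and the difference was 0.35 ± 0.10 on the log2 scale (edgeR adjusted p = 0.0181). Ccnb1, cyclin B1, averaged 8.40 ± 0.601 CPM in siCtrl and 10.2 ± 0.821 CPM in siNONO (SD over 3 libraries, here and below), and its log2 fold change was 0.28 ± 0.09 (edgeR adjusted p = 0.0313). Ccnb2, cyclin B2, averaged 7.12 ± 0.784 and 8.67 ± 0.690 CPM, with 0.29 ± 0.10 on the log2 scale (edgeR adjusted p = 0.0438). Cyclin A2 (Ccna2), which acts from S phase into early mitosis, had a log2 fold change of 0.20 ± 0.14 and did not pass. Cdk1, the kinase that these cyclins activate, was at 16.01, 16.4 and 13.1 CPM in siCtrl and 13.9, 15.1 and 17.3 CPM in siNONO. The groups overlapped across most of their range, and its log2 fold change of 0.03 ± 0.10 (edgeR adjusted p = 0.828) changed sign without siCtrl replicate 3 (-0.07) and without siNONO replicate 3 (-0.06).

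Of the transcription factors that switch on G2 and M phase genes, Mybl2 passed and Foxm1 did not. Mybl2 was at 4.88, 5.49 and 4.78 CPM in siCtrl and 5.73, 6.20 and 7.62 CPM in siNONO, with 0.37 ± 0.12 on the log2 scale (edgeR adjusted p = 0.0327). Its siNONO values all lay above the siCtrl ones but were spread more widely, with replicate 3 the highest. Foxm1 had 4.80, 5.70 and 6.02 CPM in siCtrl and 6.32, 6.35 and 5.98 CPM in siNONO, and its log2 fold change was 0.17 ± 0.11 (edgeR adjusted p = 0.259).

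In the spindle checkpoint and the anaphase-promoting complex, 2 of 5 genes were raised, against 16.2% of all tested genes. Ttk, the checkpoint kinase MPS1, was at 3.02, 3.31 and 3.06 CPM in siCtrl and 4.18, 4.45 and 4.39 CPM in siNONO. The 2 groups were tight and well apart, by 0.47 ± 0.12 on the log2 scale (edgeR adjusted p = 0.00842). Cdc20, the activator of the anaphase-promoting complex that the checkpoint inhibits, averaged 11.5 ± 1.07 CPM in siCtrl and 13.8 ± 0.839 CPM in siNONO, and its log2 fold change was 0.27 ± 0.08 (edgeR adjusted p = 0.0227). Bub1, a checkpoint kinase at the kinetochore, had a log2 fold change of only 0.17 ± 0.08 and did not pass, although its siNONO values (8.72 to 8.94 CPM) all lay above its siCtrl values (7.52 to 8.15 CPM). Bub1b, which encodes the checkpoint protein BUBR1, had 0.20 ± 0.14, and Ube2c, the ubiquitin-conjugating enzyme of the anaphase-promoting complex, 0.20 ± 0.11 on the log2 scale, and neither passed.

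The kinetochore genes held both the largest and the smallest change of the 34. Ndc80, the microtubule-binding subunit of the complex of the same name, was at 5.21, 5.91 and 4.63 CPM in siCtrl and 8.03, 7.01 and 7.65 CPM in siNONO. The lowest siNONO library exceeded the highest siCtrl library, and the log2 fold change was 0.53 ± 0.11, a 1.44-fold higher level (edgeR adjusted p = 0.00222). Cenpf, a large protein of the outer kinetochore, went from 5.61 ± 0.628 to 7.89 ± 1.13 CPM (0.50 ± 0.12 on the log2 scale; edgeR adjusted p = 0.00625). Cenpe, the kinesin that moves chromosomes to the spindle equator, was at 4.54, 4.29 and 5.16 CPM in siCtrl and 6.52, 5.51 and 5.98 CPM in siNONO (0.36 ± 0.11; edgeR adjusted p = 0.0289). Nuf2, which pairs with NDC80 in its complex, was at 4.06, 5.03 and 4.41 CPM in siCtrl and 4.08, 4.67 and 4.95 CPM in siNONO. Its groups overlapped fully, and the difference of 0.02 ± 0.13 on the log2 scale (edgeR adjusted p = 0.912) was -0.04 without siCtrl replicate 1 and also without siNONO replicate 3.

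The NDC80 complex consists of the dimer of NDC80 and NUF2 and that of SPC24 and SPC25, and Ndc80 and Spc24 passed the threshold while Nuf2 and Spc25 did not. This contrast was noticed after the values were seen and is given as a description, since passing and not passing do not show that partners differ. Spc24 was at 6.44, 5.87 and 5.49 CPM in siCtrl and 8.75, 8.999 and 8.53 CPM in siNONO, with 0.56 ± 0.09 on the log2 scale (edgeR adjusted p = 0.000385). Spc25, singled out after its values were seen, averaged 2.80 ± 0.409 CPM in siCtrl and 2.62 ± 0.0566 CPM in siNONO, with -0.10 ± 0.15 on the log2 scale (edgeR adjusted p = 0.663) and 0.01 without siCtrl replicate 2. The ratio of Ndc80 to Nuf2 reads within a library, which no library scaling affects, was 1.28, 1.17 and 1.05 in siCtrl and 1.97, 1.50 and 1.54 in siNONO. These ratios did not overlap between the groups. The ratio of Ndc80 to Spc24 reads averaged 0.89 ± 0.105 in siCtrl and 0.86 ± 0.075 in siNONO. The ratio of Spc24 to Nuf2 reads averaged 1.33 ± 0.223 in siCtrl and 1.93 ± 0.212 in siNONO. These ratios were chosen after the values of these genes had been seen. Permutation tests gave p = 0.1 for Ndc80 to Nuf2, 0.8 for Ndc80 to Spc24 and 0.1 for Spc24 to Nuf2. With 3 libraries a group that test cannot give a p under 0.1, so it cannot decide whether the ratios differ. Ndc80 and Nuf2 had the largest and smallest change of the mitotic genes described here. Separation of their ratio was therefore favoured by the choice and does not show that partners differ.

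**Figure D3:**
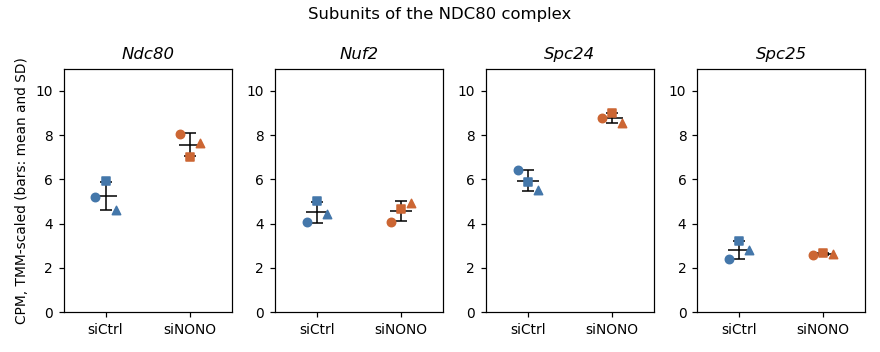
CPM of the 4 subunits of the NDC80 complex in the siCtrl (blue) and siNONO (orange) libraries, with symbols for replicates 1 (circle), 2 (square) and 3 (triangle) and bars for the mean and SD of each group. Ndc80 and Spc24 separate between the groups, and Nuf2 and Spc25 overlap.

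The chromosomal passenger complex corrects wrong attachments and later works at the central spindle. Of its 3 listed genes 0 passed the threshold, against 16.2% of all tested genes raised and 15.9% lowered. An unadjusted edgeR p under 0.05 was found for 1 of the 3, no more than the share over all genes (6058 of 14412). That gene was Birc5, which encodes survivin, at 4.10, 3.87 and 4.01 CPM in siCtrl and 4.38, 5.00 and 5.36 CPM in siNONO (log2 fold change 0.30 ± 0.12; edgeR adjusted p = 0.0697). Its groups did not overlap, with a gap smaller than the spread among the siNONO libraries. It passed in 4 alternative fits, that with total library size and the 3 on FPKM values, and in 0 of the 6 leave-one-out fits. Aurkb, the kinase of the complex, had a log2 fold change of 0.15 ± 0.09 and Cdca8, which encodes borealin, one of 0.17 ± 0.10.

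Of 7 genes for spindle assembly, 3 were raised, against 16.2% of all tested genes. Tpx2, which activates Aurora A and promotes microtubule nucleation near chromosomes, was at 12.5, 12.2 and 10.99 CPM in siCtrl and 15.2, 14.5 and 15.6 CPM in siNONO (log2 fold change 0.35 ± 0.07; edgeR adjusted p = 0.00265). Nusap1, a microtubule-bundling protein, was at 4.06, 3.98 and 4.20 CPM in siCtrl and 5.496, 5.27 and 5.80 CPM in siNONO (0.44 ± 0.11; edgeR adjusted p = 0.00729). Both genes separated the groups by more than the spread within either. Hmmr, a microtubule-associated protein also known as a hyaluronan receptor, was at 4.62, 6.75 and 4.91 CPM in siCtrl and 6.84, 7.07 and 7.09 CPM in siNONO (0.37 ± 0.13; edgeR adjusted p = 0.0405). Its siCtrl replicate 2 came close to the lowest siNONO library, and the other siCtrl libraries lay well below. Plk1, the Polo kinase of mitosis, missed the threshold (0.24 ± 0.09; edgeR adjusted p = 0.0563) although its groups did not overlap. It passed in 6 alternative fits, namely those with total library size, without a filter, with the length correction and on the 3 sets of FPKM values, and in 0 of the 6 leave-one-out fits. The kinesin gene Kif11 (0.24 ± 0.15) and Dlgap5 (0.07 ± 0.08), which stabilises spindle fibres, did not pass. Aurka, the kinase that TPX2 activates, had 6.07, 5.95 and 5.65 CPM in siCtrl and 6.68, 5.09 and 6.36 CPM in siNONO. Its siNONO values lay on both sides of the siCtrl ones, and its log2 fold change of 0.04 ± 0.12 was -0.04 without siNONO replicate 1 and -0.01 without siNONO replicate 3.

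Genes of the central spindle and cytokinesis were raised in 4 of 6 cases, against 16.2% of all tested genes. In each of the 6 the level was lowest in siCtrl replicate 1 and highest in siNONO replicate 3. Kif23, the kinesin of the centralspindlin complex, was at 4.47, 6.16 and 5.77 CPM in siCtrl and 7.93, 6.68 and 8.17 CPM in siNONO (log2 fold change 0.47 ± 0.12; edgeR adjusted p = 0.0106). Racgap1, its partner in that complex, had 0.23 ± 0.10 and did not pass (edgeR adjusted p = 0.0882), but did with total library size, on genes with at least 1 FPKM and without siNONO replicate 2. Ect2, the exchange factor for RhoA that centralspindlin recruits, went from 3.11 ± 0.419 to 4.35 ± 0.421 CPM (0.48 ± 0.14; edgeR adjusted p = 0.0162). Prc1, which crosslinks the microtubules of the central spindle, went from 11.03 ± 1.47 to 14.04 ± 1.31 CPM (0.35 ± 0.10; edgeR adjusted p = 0.0144). Anln, the furrow scaffold anillin, was raised (0.32 ± 0.11; edgeR adjusted p = 0.0389) although its siNONO replicate 2 (11.2 CPM) lay below siCtrl replicate 2 (11.6 CPM). Kif20a, a kinesin of the central spindle, had 0.21 ± 0.11 and did not pass, but did without a filter and without siNONO replicate 2.

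The commonly used proliferation marker Mki67 did not pass, whereas Top2a, the topoisomerase that untangles sister chromosomes, rose. Mki67, the Ki-67 gene, was at 13.1, 18.4 and 16.7 CPM in siCtrl and 17.8, 16.3 and 19.0 CPM in siNONO. The groups overlapped, and its log2 fold change of 0.14 ± 0.10 (edgeR adjusted p = 0.332) was 0.02 without siCtrl replicate 1 and 0.24 without siCtrl replicate 2. Top2a was at 6.37, 9.18 and 7.62 CPM in siCtrl and 9.64, 9.75 and 10.7 CPM in siNONO, with 0.37 ± 0.11 on the log2 scale (edgeR adjusted p = 0.0210).

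**Figure D4:**
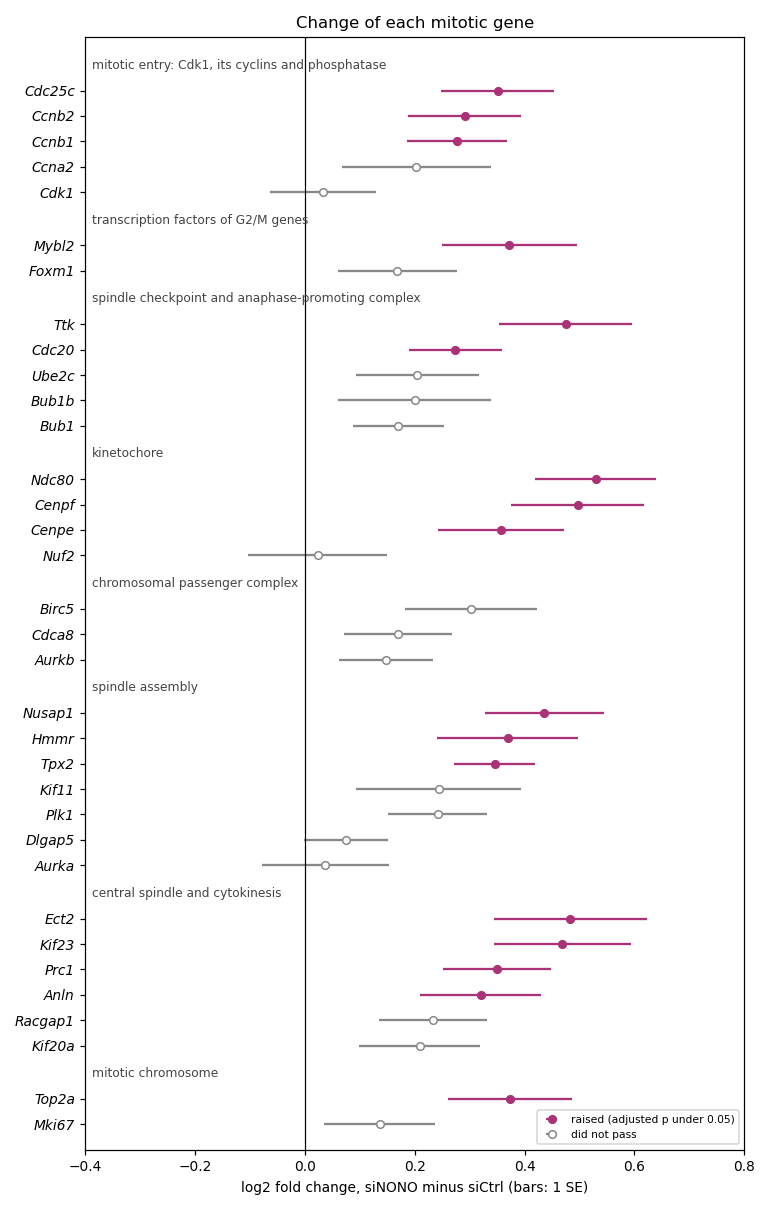
Log2 fold change of each of the 34 mitotic genes, siNONO minus siCtrl, with bars of 1 SE. Filled purple points are the 17 genes raised at an edgeR adjusted p under 0.05 and open grey points those that did not pass, and all 34 points lie to the right of 0.

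Per unit of length, the mRNAs of these genes were scarce in the siCtrl cultures. Their mean level in the deposited FPKM values (fragments scaled by gene length and library size) ran from 0.477 for Cenpf to 10.4 for Cdk1, with a median of 1.91 FPKM against 4.44 FPKM over all tested genes. Cdk1 (10.4 ± 1.22 FPKM, SD, n = 3) stood above Ube2c (6.38 ± 0.855 FPKM) in every siCtrl library. Below it, Ube2c and Cdc20 (5.77 ± 0.506 FPKM) differed by less than their spread, as did Ccnb2 (4.26 ± 0.476), Aurkb (4.07 ± 0.387) and Cdca8 (3.97 ± 0.419 FPKM). At the lower end came Kif11 (0.623 ± 0.0814), Cenpe (0.533 ± 0.0493) and Cenpf (0.477 ± 0.0551 FPKM). Genes further apart in this order could also lie within their spread of each other, such as Ccna2 (2.03 ± 0.393 FPKM) and Anln (1.88 ± 0.272 FPKM). The order is therefore only approximate. Across the 34 genes the log2 fold change had a Spearman correlation of 0.37 with gene length and of -0.24 with mean CPM, given as a description only, since the genes share the same 6 libraries. Over all tested genes the correlation with length was 0.11. With a correction for gene length, 18 of the 34 were raised and their median log2 fold change was 0.28.

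Reads of neighbouring genes could enter some of these counts, since the sources used here do not say whether counting used strand. In the RefSeq annotation of another build (GRCr8), the spans of 13 of the 34 genes overlap another annotated gene, 8 of them a protein-coding one. Of the overlapping protein-coding genes that were tested, Cdc23, which overlaps Kif20a, was raised (0.29 ± 0.05; edgeR adjusted p = 0.000309). Ide, which overlaps Kif11, was lowered (-0.20 ± 0.05; edgeR adjusted p = 0.00371). Ndufaf1, which overlaps the raised Nusap1, differed by 0.19 ± 0.07 on the log2 scale (edgeR adjusted p = 0.0542) at 17.3 CPM in siCtrl, and Fam210b, which overlaps Aurka, by 0.09 ± 0.06. Whether overlapping reads bear on these members was not tested.

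Other genes of the same machinery moved less evenly. Of 130 tested genes in 4 further lists, 25 (19.2%) were raised and 5 (3.85%) lowered, against 16.2% and 15.9% of all tested genes, so the share raised was near that over all genes. Their median log2 fold change was 0.14, and 104 of the 130 (80.0%) were above 0, against 50.5%. With total library size 40 were raised and 2 lowered. Over all tested genes that scaling gave 3174 raised and 1673 lowered, in place of 2338 and 2292, and moved the median log2 fold change from 0.00 to 0.05.

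Of 35 other centromere and kinetochore genes, 7 (20%) were raised, near the 16.2% of all tested genes, and 1 was lowered (median 0.15). Cenpa, the histone H3 variant that marks centromeres, was at 3.95, 3.98 and 4.01 CPM in siCtrl and 6.19, 5.36 and 7.24 CPM in siNONO (0.65 ± 0.13 on the log2 scale; edgeR adjusted p = 0.00131). Spc24, described above, had the next largest rise, and Cenpx, which also serves in a DNA repair complex, fell by 0.37 on the log2 scale (SE 0.09; edgeR adjusted p = 0.00773). Of 33 tested mitotic kinesins and spindle proteins, 6 (18.2%, again near 16.2%) were raised and 0 lowered (median 0.20). An unadjusted edgeR p under 0.05 was found for 13 of the 33, no more than the share over all genes (6058 of 14412). Kif14, a kinesin of cytokinesis, had 0.92 ± 0.26 at 0.754 CPM in siCtrl, and its call ended without siCtrl replicate 3 (edgeR adjusted p = 0.0574) and without siNONO replicate 2 (0.0525). The spindle protein gene Fam83d had 0.56 ± 0.16, and its call ended without siCtrl replicate 3 (0.0607).

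Condensins, further mitotic kinases and cytokinesis genes were raised in 7 of 35 cases (20%, against 16.2% of all tested genes) and lowered in 1 (median 0.19). Nek2, a centrosome kinase, went from 1.58 ± 0.251 to 2.73 ± 0.151 CPM (0.78 ± 0.17; edgeR adjusted p = 0.00299). Plk4, the kinase that starts centriole duplication, had 0.57 ± 0.18, but its call ended without siCtrl replicate 2, siCtrl replicate 3 or siNONO replicate 1 (edgeR adjusted p from 0.0521 to 0.136). Arpp19, an inhibitor of the phosphatase PP2A, fell by 0.12 on the log2 scale and was called in only 1 of the 6 leave-one-out fits, that without siCtrl replicate 3 (edgeR adjusted p up to 0.112 in the others). Of 27 genes of the checkpoint, cohesion and chromosome separation, 5 (18.5%, against 16.2%) were raised and 3 (11.1%, against 15.9%) lowered (median 0.11). Of these, Anapc1, a scaffold subunit of the anaphase-promoting complex, rose (0.35 ± 0.05; edgeR adjusted p = 0.000249). Cdc23 (0.29 ± 0.05), Cdc27 (0.15 ± 0.04) and Anapc2 (0.14 ± 0.04), further subunits singled out after their values were seen, were raised as well. Cdc27 lost its call without siCtrl replicate 3, siNONO replicate 1 or siNONO replicate 2, and Anapc2 without siCtrl replicate 2, siNONO replicate 1 or siNONO replicate 3 (edgeR adjusted p from 0.0521 to 0.152). The separase gene Espl1 had 0.53 ± 0.19, and lost its call without siCtrl replicate 1 or 3 and without siNONO replicate 1 or 3 (edgeR adjusted p from 0.0601 to 0.185). All 3 lowered genes act with the same complex, namely its subunits Anapc5 (-0.19 ± 0.04) and Anapc11 (-0.19 ± 0.06) and, singled out after its values were seen, its ubiquitin-conjugating enzyme Ube2s (-0.16 ± 0.04). Anapc11 lost its call without siCtrl replicate 1, siNONO replicate 1 or siNONO replicate 3 (edgeR adjusted p from 0.0827 to 0.11), and Ube2s without siNONO replicate 1 (0.0514).

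Genes of the earlier cell cycle steps are given for comparison, and no difference between the lists was tested. Of 45 genes for DNA replication and the G1/S transition, 7 (15.6%) were raised and 1 lowered, and 26 (57.8%) were above 0 (median 0.08). The share raised was no more than the 16.2% of all tested genes, and with log2(FPKM + 1) the counts were 10 and 0. The replication factor Mcm10 (0.49 ± 0.16) and the replicative helicase subunit Gins3 (0.48 ± 0.17) rose most. Mcm10 lost its call without siCtrl replicate 2 or 3 and without siNONO replicate 2 or 3, and Gins3 without siCtrl replicate 1 or 2 and without siNONO replicate 2 or 3 (edgeR adjusted p from 0.0626 to 0.187). The thymidylate synthase gene Tyms fell by 0.22 on the log2 scale (SE 0.06). Of 33 tested CDK inhibitors, pocket proteins, MuvB subunits and related regulators, 4 (12.1%) were raised and 5 (15.2%) lowered (median -0.01), both near or under the shares of all tested genes, and with total library size 8 and 4.

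Larger changes than in any of the 34 mitotic genes were found in this last list. Cdkn1c, which encodes the CDK inhibitor p57, was at 3.69, 3.48 and 4.94 CPM in siCtrl and 10.004, 11.8 and 8.64 CPM in siNONO (log2 fold change 1.32 ± 0.14; edgeR adjusted p = 1.05e-05). Ccnd3, cyclin D3, was at 187, 180 and 180 CPM in siCtrl and 96.8, 104 and 97.4 CPM in siNONO (-0.87 ± 0.04; edgeR adjusted p = 9.21e-09). Cdkn2b, which encodes the inhibitor p15 of the cyclin D kinases, went from 49.6 ± 0.770 to 34.5 ± 0.945 CPM (-0.52 ± 0.05), and Cdk6, a kinase of the D-type cyclins, rose by 0.23 ± 0.05. The other called regulators, given after their values were seen, were the raised E2F partners Tfdp1 (0.14) and Tfdp2 (0.23) and the lowered Rb1 (-0.40), Cdkn1a (-0.18) and Mdm2 (-0.14), which encode the retinoblastoma protein, the CDK inhibitor p21 and the p53 regulator MDM2. In the leave-one-out fits, Tfdp1 kept its call only without siCtrl replicate 2 and Mdm2 only without siCtrl replicate 1 or siNONO replicate 1 (edgeR adjusted p up to 0.175 in the others). Tfdp2 lost its call without siNONO replicate 3 (0.085) and Cdkn1a without siNONO replicate 1 (0.0601). Groups did not overlap for Cdkn1c, Ccnd3 or Cdkn2b.

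**Figure D5:**
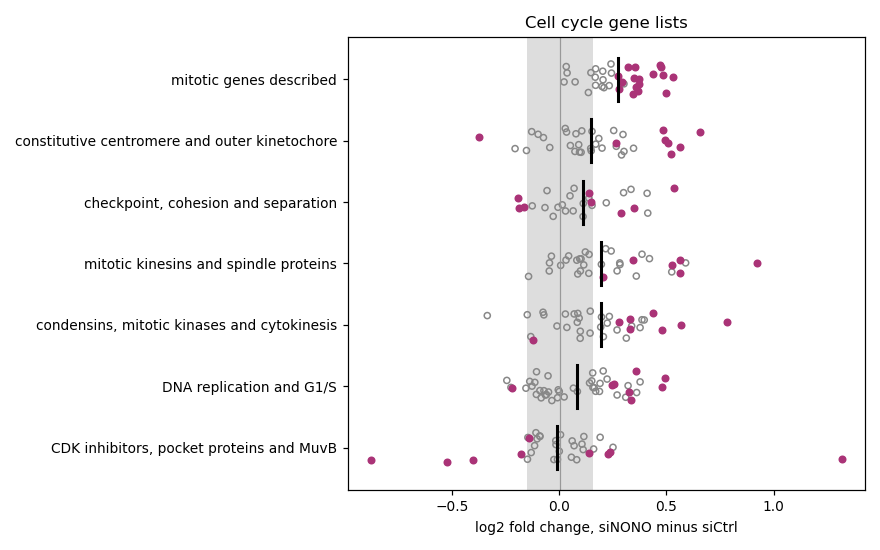
Log2 fold change of each tested gene in the 34 mitotic genes (top row) and in 6 other cell cycle lists, with filled points for genes past the threshold, open points for the rest and black bars for list medians. The grey band spans the quartiles of all tested genes (-0.15 to 0.16), and the median of the 34 (0.28) lies above it. So do those of the kinesin and spindle list (0.20) and of the condensin, kinase and cytokinesis list (0.19). The medians of the centromere and kinetochore list (0.15), the checkpoint and cohesion list (0.11), the replication list (0.08) and the regulator list (-0.01) lie within it.

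Markers of several cell types also differed between the groups, while the sums of the endothelial markers overlapped. For comparison, 16.2% of all tested genes were raised and 15.9% lowered. The 7 tested markers of pericytes and smooth muscle (1 raised, 4 lowered) summed to between 86.2 and 96.1 CPM in siCtrl and between 73.2 and 78.9 CPM in siNONO, with Myh11 (-0.88 ± 0.15) and Cnn1 (-0.88 ± 0.16) lowered and Des (0.36 ± 0.10) raised, the last not without siNONO replicate 1 or 2 (edgeR adjusted p from 0.051 to 0.0588). The 3 tested cardiomyocyte markers summed to between 144 and 160 CPM in siCtrl and between 108 and 117 CPM in siNONO, nearly all of it the lowered Tnnt2 (-0.45 ± 0.05). Of 12 fibroblast markers 1 was raised and 6 lowered (median -0.15), with Lum (-0.91 ± 0.06) and Fap (-0.70 ± 0.07) lowered most and Ddr2 (0.13 ± 0.04) raised, the last not without siCtrl replicate 3, siNONO replicate 1 or siNONO replicate 3 (edgeR adjusted p from 0.0771 to 0.119). The macrophage genes Adgre1 (-0.50 ± 0.06) and Csf1r (-0.30 ± 0.06) were lowered. The 6 tested endothelial markers summed to between 37.9 and 39.7 CPM in siCtrl and between 39.4 and 41.5 CPM in siNONO, with Tek called raised (0.24 ± 0.07) in all 6 libraries together and in 1 of the 6 leave-one-out fits. The part of the cell mixture in the levels of the mitotic genes was not tested.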

How the data were processed

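Poly(A)-selected RNA was made into stranded libraries, per the labels' protocols. HISAT2, edgeR and genome build mRatBN7.2 are named in the submitters' processing notes; the sources used here give no versions, counter or strand setting. The deposited table of read counts per gene holds whole numbers, and the deposited FPKM values of 21081 genes were scaled by the authors. There were 0 columns of other samples. Libraries within a group differed by more than sampling noise (chi-square over its degrees of freedom, 3.18 to 7.58).

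Counts were tested in R 4.3.3 with edgeR 4.0.16: filterByExpr, TMM, quasi-likelihood fit of siNONO against siCtrl on all 6 libraries, two-sided, Benjamini-Hochberg over 14412 genes at 0.05. SE was derived from the log2 fold change and F. A count of 0 allows up to 3 counts, or 0.0899 to 0.108 CPM, for counting error only. Alternatives used edgeR, DESeq2 1.42.0 and limma 3.58.1; the length corrections were added after the data were seen. Only the edgeR fit as reported was run on simulated data, and the alternatives were not. Gene length was recovered from counts and FPKM of at least 0.1. Figures used matplotlib 3.10.9.

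The members and lists were chosen with earlier results of these data known. Named were all members, Nono and, of each other list, up to 2 of the strongest rises and 2 of the strongest falls among genes past the threshold. Outside this rule, Col1a1, Pdgfra, Myh6, Actc1 and Ryr2 were named to describe the culture. Cdc23, Ide, Ndufaf1 and Fam210b were named because they overlap a member. Other exceptions are said to be chosen after their values were seen. The promoter and protein searches planned for these genes were not run, as no sequences were used here.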

Additional observations from a re-analysis of the deposited data

How the results depend on the processing

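All 34 mitotic genes kept a log2 fold change above 0 under the other scalings, filters and tests and the length corrections, and 31 also in each fit without 1 library, the exceptions being Cdk1 (-0.0667 without siCtrl replicate 3 to 0.0978), Nuf2 (-0.0425 without siNONO replicate 3 to 0.108) and Aurka (-0.0407 without siNONO replicate 1 to 0.144). That of Spc25, outside the 34, ranged from -0.194 to 0.00566 (without siCtrl replicate 2). Leaving out 1 library in turn, 5 to 17 of the 34 were raised, 17 to 27 of the other mitotic genes were raised and 2 (without siNONO replicate 1) to 5 lowered, 2 (without siNONO replicate 3) to 5 of the regulators were raised, and over all genes 1675 to 2243 were raised and 1694 to 2143 lowered. At an adjusted p threshold of 0.01, 5 of the 34 were raised, 12 of the other mitotic genes raised and 3 lowered, 4 replication genes raised and 0 lowered, 2 regulators raised, and 1428 of all genes raised and 1424 lowered. With total library size 40 other mitotic genes were raised and 2 lowered, 11 replication genes raised and 8 regulators raised. With log2(FPKM + 1) 41 other mitotic genes were raised and 3 lowered, and 3 were lowered with log2(FPKM + 0.1) and with at least 1 FPKM in 3 libraries; in these 3 fits 0 replication genes were lowered and 8 regulators raised, and in the last 1441 of all genes were lowered. The labels do not say whether the replicate numbers of the titles pair the libraries. Correlations of deviations lay between -0.086 and -0.007 for the same number, which with 3 libraries a group cannot settle it. With the replicate block 14 of the 34 were raised, Anln, Ccnb2 and Mybl2 losing their calls (edgeR adjusted p 0.0514 to 0.0855). With the gene length correction and the block together 16 were raised, Ccnb2 losing its call (0.059). The DESeq2 Wald test gave 14, without Ccnb1, Ccnb2 and Cenpe (0.0577 to 0.0808), and the 3 FPKM fits ended the call of Anln (0.0505 to 0.0714). The cause of these differences was not tested. With 3 libraries a group and as few as 75 reads per gene, the smallest change called among the 34 was 0.27 (Cdc20) and the largest not called 0.30 (Birc5) on the log2 scale.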
